A study of Mus musculus with 5 samples.

Results

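Runx1, Runx2 and Runx3 encode the 3 DNA-binding RUNX transcription factors of the mouse, and Cbfb encodes their shared partner, CBFβ, and these 4 genes were followed through DNase I hypersensitive sites in 5 stages of blood formation in culture. The genes were chosen by name. Their sites were those within 1 kb of any of their transcription start sites (TSS), and those inside the gene or up to 100 kb from its TSS for which it was the nearest protein-coding gene. By this rule 102 of the 135173 listed sites belonged to the 4 genes, which were 4 of the 21000 protein-coding genes with a curated RefSeq transcript. Runx1 had 50 of these sites, Runx3 29, Runx2 12 and Cbfb 11, against a median of 5 per gene.

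All cells came from a mouse ES cell line of strain 129 with a GFP reporter in the brachyury gene, grown on embryonic fibroblasts and differentiated through embryoid bodies. Mesoderm (MES) was sorted as Bry:GFP+ and Flk1-, and hemangioblasts (HB), which can give both blood and endothelium, as Bry:GFP+ and Flk1+. Hemogenic endothelium (HE), the endothelium from which blood cells bud, was Tie2+ cKit+ CD41-, hematopoietic progenitors (HP) were CD41+, and macrophages (MAC) were CD11b+. Per the study, HE, HP and MAC came from Flk1+ cells cultured further with added cytokines, the macrophages by way of CD41+ cells. Each stage had 1 list of sites, and the macrophage list carries the names of replicates with no account of how they were joined. There is therefore no replicate error, no test was possible between stages, and every difference is one between these lists. A site gives a position and a width, with no height and no read number, so that the depth behind it cannot be read from the lists, and the study's totals of aligned reads were left unused. A gene with no site in a list is one at which none was called, which does not show closed chromatin.

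Facts of the lists bear on every count. From MES to MAC they held 21949, 24729, 33305, 17734 and 37456 sites. Their median widths were 800, 900, 1200, 900 and 600 bp in the same order, so that HE sites were the widest and MAC sites the most numerous and narrowest. Among genes of the sorts and stages, the promoters of Tek (which encodes Tie2) and Cdh5 were listed in HE alone, that of Itgam (CD11b) in MAC alone, that of Itga2b (CD41) in HE and HP and that of T, the brachyury gene, in MES and HB. Other markers were less bound to a stage. The promoters of Kit, the cKit gene, and Etv2, an early factor of blood and endothelium, were listed in MES, HB, HE and HP, and that of Mesp1, a mesoderm factor, in MES, HB and HE. Kdr (Flk1) had a promoter site in every stage, MES included, although MES was sorted without Flk1. Gata1, an erythroid and megakaryocyte factor, had no site in any list, HP included.

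RUNX proteins bind DNA through the Runt domain and recognise TGTGGT-like sequences. CBFβ does not touch DNA itself and raises the affinity and stability of its RUNX partner. Runx1 is required for hemogenic endothelium to give rise to blood, Runx2 is best known for bone formation, and Runx3 for T cells, neurons and parts of the myeloid lineage. Each RUNX gene is transcribed from a distal promoter, P1, and a proximal promoter, P2, which give proteins with different amino ends, and in Runx1 the intron between P1 and P2 is known to hold enhancers active in blood.

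On mm10, Runx1 (gene ID 12394) lies on the minus strand at chr16:92601466-92826074, with the P1 start at position 92826074 and the P2 start at 92697329, 128.7 kb further into the gene. Runx2 (12393) lies on the minus strand at chr17:44495987-44814797 and Runx3 (12399) on the plus strand at chr4:135120645-135177990. Cbfb (12400) has a single start, on the plus strand at chr8:105170674-105217989. The 6 RUNX promoters and that of Cbfb made 7 promoters in all, and TSS within 1 kb of one another were counted as 1 promoter.

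The P1 promoters of the RUNX genes shared a stretch of 18 bases with 2 RUNX motifs in a row. It is shown here because the results below differ between P1 and P2, and because it is the longest run common to the 3 P1 promoters of the RefSeq promoter table (GRCm38.p6). Capitals mark matches to TGTGGT or TGCGGT on either strand.
Runx1 P1, chr16:92826025-92826054, minus strand: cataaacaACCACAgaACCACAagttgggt
Runx2 P1, chr17:44814583-44814612, minus strand: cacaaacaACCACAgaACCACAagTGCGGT
Runx3 P1, chr4:135120503-135120532, plus strand: gtccctcaACCACAgaACCACAaggccagg
With the start counted as base 1, the shared run covered bases 27 to 44 at Runx1 P1 and 22 to 39 at Runx2 P1, but lay 136 to 119 bases before the start of Runx3. Of 32851 promoter windows in the table (250 bases before to 50 after the TSS), 4 held the run: those of Runx1, Runx2, Runx3 and Gm16225, a non-coding gene that starts head to head with Runx3 and so shares its window. A pair of TGTGGT matches on the same strand with 2 bases between them occurred in 7 windows (0.0213%), whereas any RUNX match occurred in 22.4%. The windows of Runx1 P2, Runx3 P2 and Cbfb held no match to either RUNX sequence. Runx2 P2 had no window in the table and was not searched in this way.

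The stretches upstream of the starts of Runx1 P1 and P2 are set side by side here. Below, the 250 bases before each start are given 5′ to 3′ on the minus strand, with capitals for matches on either strand to the RUNX sequences above or to those of 3 other factor families. The GATA sequence was AGATAA. For ETS factors, CCGGAA was searched, and AGGAAG as a second form. For E-box factors such as the one encoded by Tal1, the sequence CAGATG was searched, and CAGCTG as a second form.
Runx1 P1, chr16:92826075-92826324: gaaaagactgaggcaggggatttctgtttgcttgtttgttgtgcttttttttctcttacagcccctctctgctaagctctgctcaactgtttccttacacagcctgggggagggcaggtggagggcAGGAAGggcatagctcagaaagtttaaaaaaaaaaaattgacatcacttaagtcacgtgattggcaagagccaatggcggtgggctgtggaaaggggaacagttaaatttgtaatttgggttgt
Runx1 P2, chr16:92697330-92697579: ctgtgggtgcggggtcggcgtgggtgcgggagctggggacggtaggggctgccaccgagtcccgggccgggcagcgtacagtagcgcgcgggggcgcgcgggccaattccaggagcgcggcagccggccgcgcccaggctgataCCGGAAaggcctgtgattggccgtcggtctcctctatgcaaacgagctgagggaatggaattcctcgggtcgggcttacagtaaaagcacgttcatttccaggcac
Each stretch held a single match, to an ETS sequence. It was AGGAAG at P1 and CCGGAA at P2. The central 500 bp of the P2 region of MES, HE, HP and MAC had a GC content of 69.4%. Those of the P1 region of MAC had 46.2%, against a median of 50.2% over all regions. Both also take in bases after the start. The separate P2 region of HB had 58.2%.

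The Runx1 promoters were listed in different stages. P2 had a site over its start in every list, with widths from MES to MAC of 800, 2000, 2500, 1200 and 1000 bp. P1 had a site over its start in MAC alone, 800 bp wide, at chr16:92825708-92826507. In the HE list 0.369% of sites were at least as wide as the one at P2, and in the HB list 0.534%, whereas the share was 50.4% for MES, 22.3% for HP and 15.3% for MAC. The P2 site was thus among the widest of its list in HB and HE and of middling width in MES. By gene, a promoter site within 1 kb was found for 57.2% (MES), 58.9% (HB), 61.7% (HE), 50.1% (HP) and 50.2% (MAC) of protein-coding genes, and 43.4% of genes had one in all 5 lists.

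The nearest site to P1 lay on different sides of the start in early and later lists. In MES it lay 1908 bp upstream and was 400 bp wide, and in HB 1773 bp upstream and 800 bp wide. In HE the nearest site lay 2456 bp downstream of the start and was 1800 bp wide, and in HP 3115 bp downstream and 1200 bp wide. The upstream region of MES and HB (chr16:92827932-92828496) was not listed in HE, HP or MAC, and the downstream one of HE and HP (chr16:92822110-92822968, in intron 2 of the P1 transcript) was not listed in MES, HB or MAC. When sites within 2 kb were counted in place of 1 kb, P1 had a site in 3 stages, MES, HB and MAC.

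**Figure D1:**
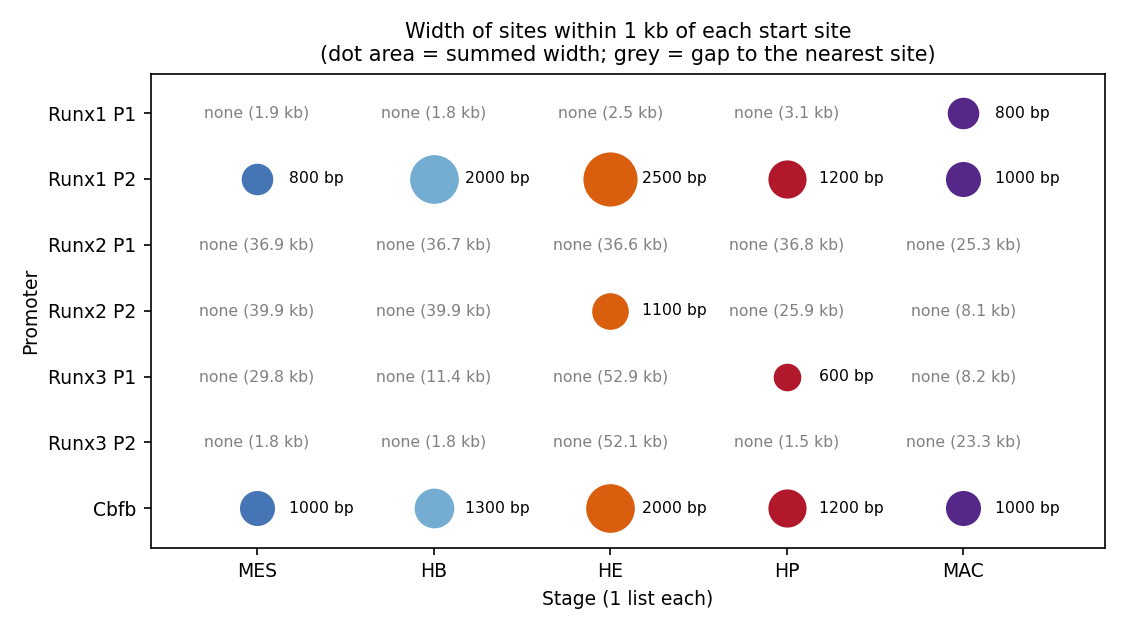
Summed width (bp) of the sites within 1 kb of each promoter's start, by stage (columns, 1 list each); dot area is proportional to width, and grey text gives the gap in kb to the nearest site where none was listed. Runx1 P2 and Cbfb have a dot in every stage, Runx1 P1 in MAC alone, Runx2 P2 in HE alone and Runx3 P1 in HP alone.

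The other RUNX promoters were rarely listed. Runx2 P1 had no site within 1 kb in any list, and its nearest site was 36.6 to 36.9 kb away in MES, HB, HE and HP. Runx2 P2 had sites in HE alone, 600 bp wide over a start (chr17:44735724-44736323) and 500 bp wide just downstream. These were narrow for their list, in which 96.0% of sites were at least as wide as the first. Runx3 P1 had a site in HP alone, 600 bp wide, at chr4:135120115-135120714. Runx3 P2 had none within 1 kb, but sites of 300 bp in MES, 300 bp in HB and 400 bp in HP lay 1828, 1830 and 1531 bp upstream of it. Cbfb, whose product serves all 3 RUNX proteins, had a site over its start in every list, with widths from MES to MAC of 1000, 1300, 2000, 1200 and 1000 bp. The Cbfb site was widest in HE, where 1331 of the 33305 sites were as wide or wider, and HE sites were the widest in general.

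Around Runx1, the lists held 3 (MES), 6 (HB), 8 (HE), 12 (HP) and 21 (MAC) sites. The number was higher at each later stage, and the last step coincides with the longest list. With only the sites at least as wide as the median of their list, the numbers were 1, 4, 3, 5 and 8, so that HE was below HB. Scaled to the length of each list, Runx1 had 1.37 (MES), 2.43 (HB), 2.40 (HE), 6.77 (HP) and 5.61 (MAC) sites per 10000. The exact binomial 95% intervals, which cover counting error only, were 0.282 to 3.99, 0.890 to 5.28, 1.04 to 4.73, 3.50 to 11.8 and 3.47 to 8.57. On this scale HP was highest within the 100 kb reach, its interval overlapped those of all other lists, and MES, HB and HE did not differ beyond their intervals. Without a limit on distance the numbers were 6, 10, 14, 14 and 32, with HE and HP equal, and MAC was highest when scaled, at 8.54 per 10000 against 7.89 in HP. In HP, 3 of 21000 genes had as many sites as Runx1 or more, itself included (0.0143%), and in MAC 7 (0.0333%). In HE 1.67% of genes did, in HB 1.66% and in MES 9.00%.

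Gene size takes part in such counts, since the stretch of genome for which Runx1 was the nearest gene, within the 100 kb reach or inside the gene, measured 328 kb. Per 100 kb of that stretch, Runx1 had 0.914, 1.83, 2.44, 3.65 and 6.40 sites from MES to MAC. Over all genes the density was 1.23, 1.37, 1.81, 1.01 and 2.02 sites per 100 kb. Runx1 thus lay below that density in MES and above it in the other stages. Runx3, with a stretch of 187 kb, had 2.14, 3.21, 1.61, 2.68 and 5.89 sites per 100 kb. That was above Runx1 in MES and HB and below it in HE, HP and MAC. When each list was cut to its widest 17734 sites, the length of the HP list, Runx1 kept 2, 6, 3, 12 and 8 sites, and HP rather than MAC had the most.

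**Figure D2:**
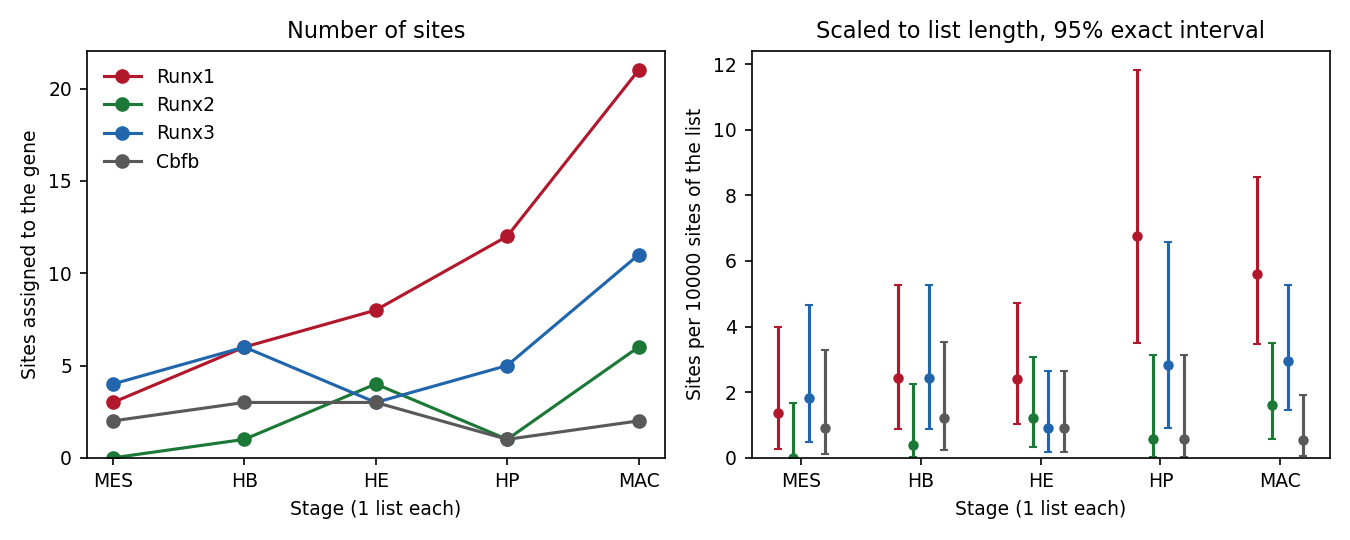
Sites assigned to each gene by stage (1 list each), as a number (left) and per 10000 sites of the list with exact binomial 95% intervals (right; counting error only). Runx1 goes from 3 sites in MES to 21 in MAC by number, and is highest in HP, at 6.77 per 10000, when scaled.

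A window of 500 bp was set around the middle of each site, and windows that shared 25% of their length or more were joined. This gave 68846 regions over the 5 lists, of which 63 belonged to the 4 genes and 31 to Runx1. None of the Runx1 regions had its middle in an exon, and 2, those at P1 and P2, overlapped a first exon. There were 11 upstream of P1, 14 between P1 and P2 and 6 beyond P2. From MES to MAC, 1, 1, 2, 3 and 7 of the upstream regions were listed, 2, 3, 4, 7 and 10 of those between the promoters, and 0, 2, 2, 2 and 4 of those beyond P2. In all, 21 of the 31 regions (67.7%) were listed in MAC, against 54.4% of all regions.

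Runx1 regions were seen once about as often as regions in general. Of the 31, 19 were listed in a single stage (61.3%), against 60.2% of all regions, and 13 of these 19 (68.4%) were in MAC, against 51.6% of all single-stage regions. None was listed in all 5 stages, against 13.2% of all regions, but this depends on the merging at P2. There the middle of the 2000 bp HB site lay 717 bp upstream of the start and its window stayed apart from that of the other 4 stages. With the whole deposited intervals merged, 1 Runx1 region, that of P2, was listed in all 5. A further region 1.45 kb upstream of P2 (chr16:92698508-92699059) had sites of 600 bp in MES, 300 bp in HP and 100 bp in MAC. It was also partly covered by the wide P2 sites of HB (chr16:92697047-92699046) and HE (chr16:92696419-92698918).

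From stage to stage, 1 of the 3 Runx1 regions of MES was kept in HB, against 81.5% of all MES regions, and 2 of the 6 of HB in HE, against 63.7%. These low numbers rest in part on the windows at P2: the HB site there overlapped both MES regions that were not kept, so that every MES site of Runx1 overlapped an HB site, and it also overlapped the HE site at P2. Of the 8 HE regions 6 were kept in HP, against 42.9% of all HE regions. From HP to MAC, 8 of 12 were kept, against 66.2%. Of the 12 Runx1 regions of HP, 6 were not listed in HE, against 19.5% of all HP regions. With so few regions these shares are descriptions of 1 locus.

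**Figure D3:**
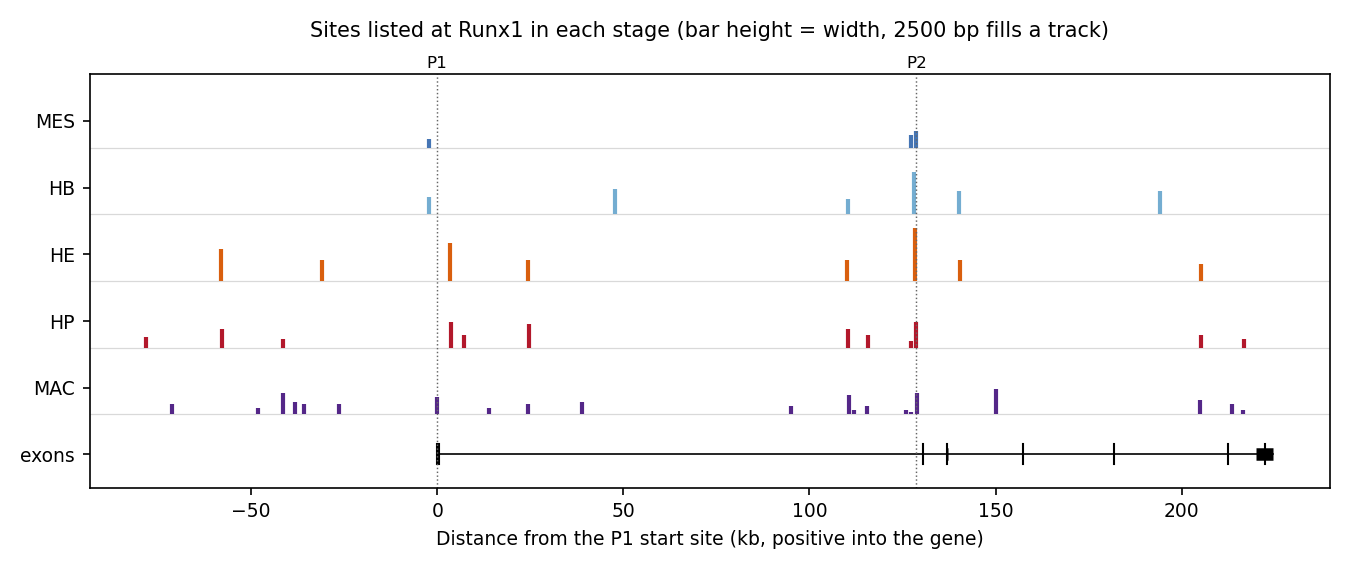
Sites of Runx1 in each stage against distance from the P1 start in kb (positive into the gene); bar height is the site's width (2500 bp fills a track), bar thickness is not to scale, and the bottom row shows the exons of a P1 transcript. Sites at P2 (128.7 kb) appear in every stage, the one at P1 in MAC alone, and upstream sites other than that at -2.1 kb from HE on.

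The region shared by most stages outside the promoters lay 110.3 kb downstream of P1 and 18.4 kb upstream of P2, at chr16:92715208-92716268. It was listed from HB on, with widths of 700, 1000, 900 and 900 bp, and not in MES. A second one, 24.4 kb downstream of P1 (chr16:92801260-92802068), was listed from HE on, with widths of 1000, 1100 and 500 bp. The third, 205.1 kb from P1 in intron 6 (chr16:92620610-92621307), was listed in the same stages, with widths of 800, 600 and 700 bp. Pairs of stages shared other regions. HE and HP alone shared the one at 3.5 kb (1800 and 1200 bp) and one 58.0 kb upstream of P1 (chr16:92883760-92884318, 1500 and 900 bp). HP and MAC alone shared those at 41.5 kb upstream (400 and 1000 bp), 115.5 kb (600 and 400 bp) and 216.6 kb (400 and 200 bp) downstream. HB and HE alone shared one 11.6 kb beyond P2 (chr16:92685369-92686146, 1100 and 1000 bp).

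Single-stage Runx1 regions fell into separate places. HB alone had 1100 bp at 194.1 kb and 1200 bp at 47.7 kb from P1, besides its P2 window. HE alone had 1000 bp at 31.0 kb upstream, and HP alone had 600 bp at 7.1 kb downstream and 500 bp at 78.2 kb upstream. MES had none of its own. The 13 of MAC ran from 71.3 kb upstream of P1 to 213.4 kb downstream, and, apart from the 1200 bp site 21.2 kb beyond P2 and the 800 bp site at P1, they were 600 bp wide or less.

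The central 300 bases of 4 regions that were absent from MES and shared by later stages are printed below, 5′ to 3′ on the minus strand, the one that codes for Runx1. Capitals mark the same RUNX, GATA, ETS and E-box sequences as above.
Upstream region of HE and HP, chr16:92883889-92884188: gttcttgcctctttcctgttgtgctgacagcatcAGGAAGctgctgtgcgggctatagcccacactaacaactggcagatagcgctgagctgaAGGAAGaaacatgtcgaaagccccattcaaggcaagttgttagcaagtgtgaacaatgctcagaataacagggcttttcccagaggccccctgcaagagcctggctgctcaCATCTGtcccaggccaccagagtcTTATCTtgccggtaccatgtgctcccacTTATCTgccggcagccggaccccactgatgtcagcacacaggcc
Region of HE and HP in intron 2, chr16:92822389-92822688: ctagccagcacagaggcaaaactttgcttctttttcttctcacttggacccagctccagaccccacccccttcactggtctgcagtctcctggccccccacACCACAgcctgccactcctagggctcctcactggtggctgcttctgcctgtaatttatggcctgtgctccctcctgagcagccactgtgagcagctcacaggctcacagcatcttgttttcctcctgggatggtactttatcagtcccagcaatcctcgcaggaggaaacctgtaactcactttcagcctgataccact
Region of HE, HP and MAC in intron 2, chr16:92801514-92801813: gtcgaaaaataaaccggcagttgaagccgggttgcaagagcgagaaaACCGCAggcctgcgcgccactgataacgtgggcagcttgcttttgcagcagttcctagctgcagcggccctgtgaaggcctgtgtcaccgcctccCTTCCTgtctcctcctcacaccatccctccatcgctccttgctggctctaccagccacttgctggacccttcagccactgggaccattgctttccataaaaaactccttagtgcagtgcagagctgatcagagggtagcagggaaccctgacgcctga
Region of HB, HE, HP and MAC in intron 2, chr16:92715588-92715887: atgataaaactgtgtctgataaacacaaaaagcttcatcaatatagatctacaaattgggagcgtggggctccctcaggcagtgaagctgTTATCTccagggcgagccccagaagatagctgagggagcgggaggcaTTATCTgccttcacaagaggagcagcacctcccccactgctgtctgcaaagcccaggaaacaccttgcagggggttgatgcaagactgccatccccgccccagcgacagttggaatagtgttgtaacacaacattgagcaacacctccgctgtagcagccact
The upstream region held 2 AGGAAG matches, an E-box (as CATCTG, the other strand of CAGATG) and 2 GATA matches (as TTATCT). The region nearest P1 held 1 RUNX match, ACCACA. The one listed from HE on held 1 RUNX match, ACCGCA, and 1 ETS match, CTTCCT. The one listed from HB on held 2 GATA matches and none to RUNX, ETS or E-box sequences.

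Over their central 500 bp, 14 of the 31 Runx1 regions (45.2%) held a RUNX match, against 39.9% of all regions. GATA matches were found in 11 (35.5%, against 23.0%), ETS matches in 23 (74.2%, against 67.9%) and E-box matches in 22 (71.0%, against 53.3%). TEAD (CATTCC) was matched in 7 (22.6%, against 26.7%) and AP1 (TGANTCA) in 8 (25.8%, against 22.7%). For the PU.1 sequence GAGGAAGT, which contains the ETS letters AGGAAG, the number was 3 (9.68%, against 8.25%), and for CEBP (TTGCNNAA) 5 (16.1%, against 20.4%). SOX (ACAATG or ACAAAG) was matched in 17 (54.8%, against 47.1%), and no Runx1 region matched the CTCF sequence, against 1.60% of all regions. In the central 200 bp GATA turned the other way, with matches in 2 Runx1 regions (6.45%, against 10.5% of all regions). Both strands were searched, and a match is a description of letters, not a bound site. The P1 region listed in MAC held 3 RUNX matches and 1 ETS match, whereas the P2 region of MES, HE, HP and MAC held no RUNX match and the P2 window of HB held 1. The most GATA matches, 3, were in the region 110.3 kb from P1, and the most ETS matches, 4 each, in those 41.5 kb upstream and 7.1 kb downstream.

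**Figure D4:**
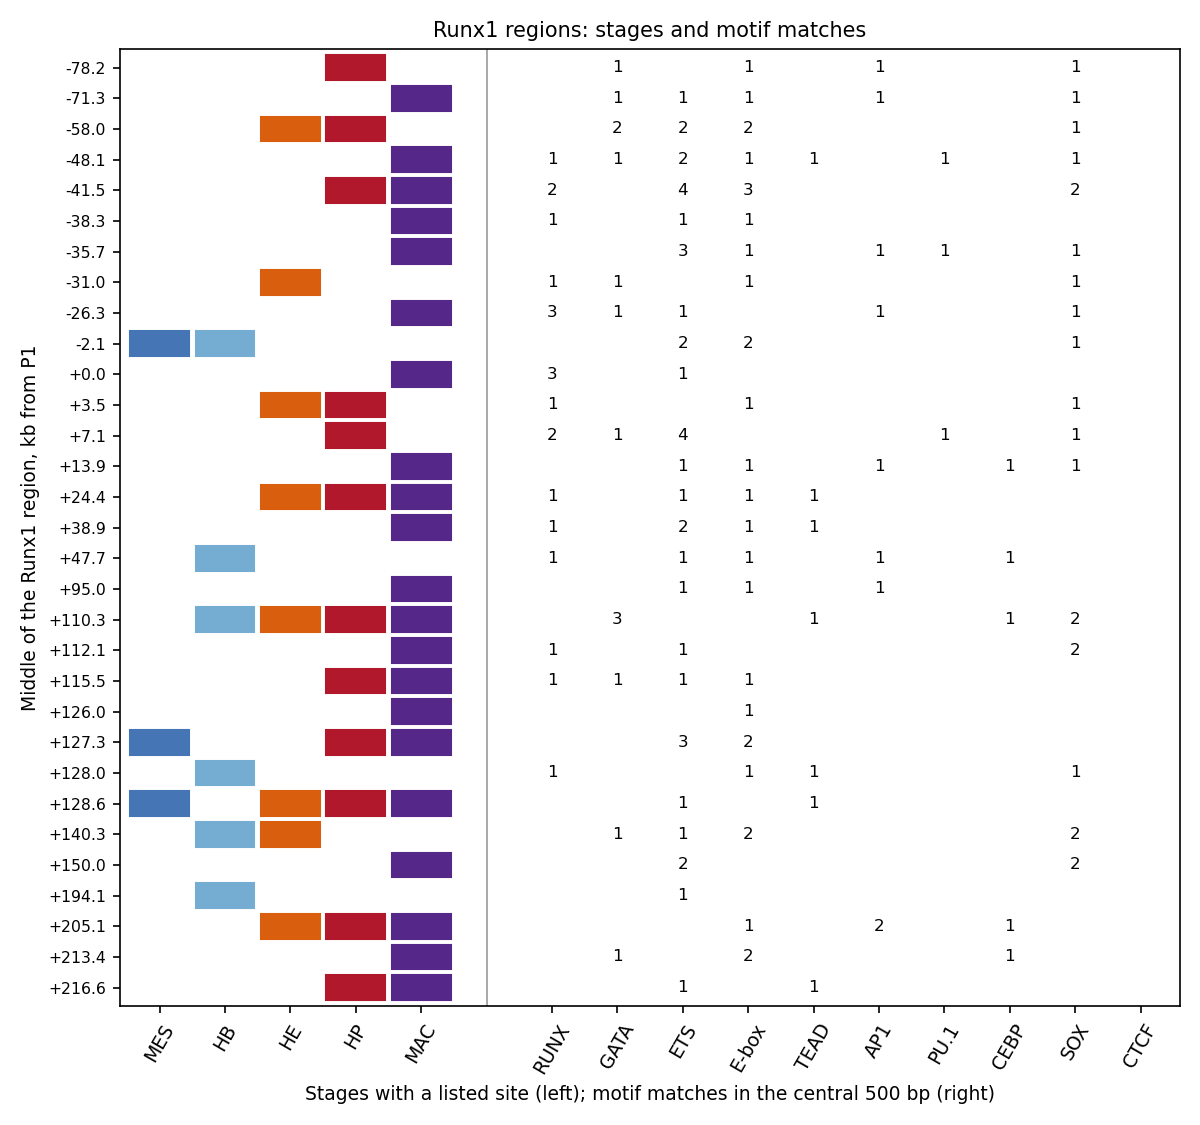
The 31 Runx1 regions in order of distance from P1 (kb), with filled boxes for the stages in which each was listed and, on the right, the number of motif matches in the central 500 bp (blank for 0). Boxes of MAC are the most frequent (21 regions), no region is filled in all 5 stages, and 23 regions hold an ETS match.

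Runx2, the bone factor of the family, had the fewest sites of the RUNX genes. From MES to MAC there were 0, 1, 4, 1 and 6, in 10 regions. All those assigned to it lay at P2 or beyond it, 9 in introns and 1 in an untranslated exon part at P2. The sites between P1 and P2 went to another gene by the rule of the nearest start. Of its 10 regions 8 were in a single stage, against 60.2% of all regions, and those in more than 1 stage were one at 96.2 kb from P1 (500 bp in HE, 1000 bp in MAC) and one at 104.6 kb (600 bp in HP, 500 bp in MAC). Of the 4 Runx2 regions of HE none was kept in HP, where 42.9% of all HE regions were. The widest Runx2 site, 1400 bp in MAC, lay 150.7 kb from P1 in intron 5. The gene Supt3, a transcription coactivator subunit, starts inside Runx2 on the other strand, and 7 sites within the Runx2 body went to it. They lay between P1 and P2, at 25.5 to 37.5 kb from P1. Of these, 5 lay over the Supt3 start, 1 in each stage and 1100 to 1600 bp wide. The count of Runx2 rose from 12 to 19 sites when every site inside the gene was given to it, by construction of that rule.

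Runx3 had 4, 6, 3, 5 and 11 sites from MES to MAC, in 18 regions, 8 upstream of the gene, 5 in introns and 5 downstream. Unlike Runx1, it had its fewest sites in HE. Scaled to list length the values were 1.82, 2.43, 0.901, 2.82 and 2.94 per 10000, with intervals that all overlapped. The sites listed in every stage were far from its promoters. The region 53.5 kb upstream of P1 (chr4:135066765-135067567) was listed in every stage, at 600, 800, 1100, 1000 and 500 bp from MES to MAC. The region 85.7 kb downstream of P1 (chr4:135205908-135206764), beyond the 3′ end of the gene, was also listed in every stage, at 600, 900, 1100, 400 and 700 bp. These 2 of 18 regions made 11.1%, against 13.2% of all regions. The upstream one held the only CTCF match among the 63 member regions. HB alone had Runx3 sites 11.8 kb upstream of P1 (700 bp) and at 20.4 kb (1000 bp) and 46.2 kb (900 bp) downstream, and MAC alone had 8 of the 18 regions (44.4%, against 31.0% of all regions). RUNX matches were found in 11 of the 18 Runx3 regions (61.1%, against 39.9% of all regions), and in 5 (27.8%, against 19.7%) within the central 200 bp. The 500 bp of the P1 region of HP and of the HE region 75.2 kb upstream held 3 each.

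Cbfb had 2, 3, 3, 1 and 2 sites from MES to MAC, in 4 regions over a stretch of 46.7 kb. Besides its promoter, a region 17.5 kb upstream (chr8:105152795-105153473) was listed in MES (700 bp), HB (1000 bp) and HE (1000 bp). Another, 6.1 kb upstream, was listed in HB (400 bp) and HE (1100 bp). Neither was listed in HP or MAC. MAC alone had a 700 bp site in intron 2 (chr8:105186326-105187025). In HP the promoter was the only Cbfb site. Per 100 kb of its stretch, Cbfb had 4.28, 6.42, 6.42, 2.14 and 4.28 sites from MES to MAC. Runx1 had 0.914, 1.83, 2.44, 3.65 and 6.40, so Cbfb lay above it in MES, HB and HE and below it in HP and MAC.

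**Figure D5:**
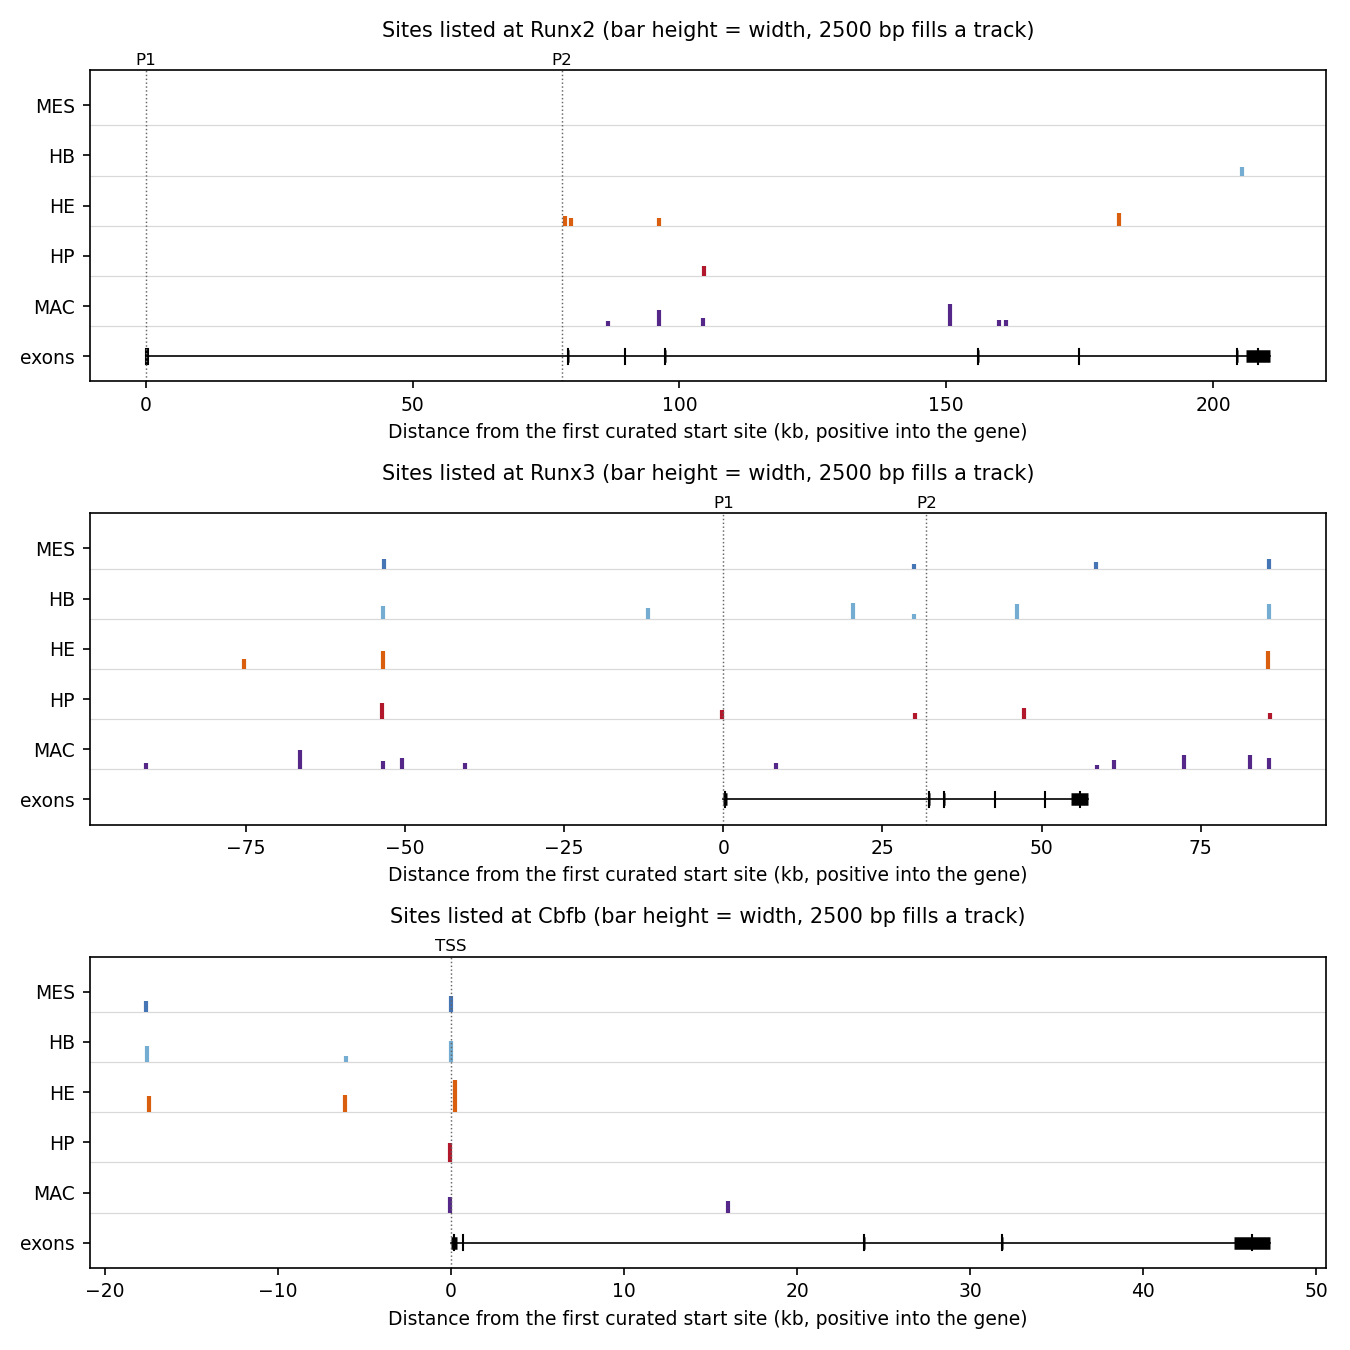
Sites of Runx2, Runx3 and Cbfb by stage against distance from the first curated start in kb (positive into the gene), drawn as for Runx1 with bar height for width. Sites assigned to Runx2 lie at P2 or beyond, and those between its P1 and P2, assigned to Supt3, are not drawn. Runx3 has aligned sites in every stage at -53.5 and 85.7 kb, and the Cbfb start is listed in every stage.

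Genes that work with RUNX factors had promoter sites as follows. Of 17 RUNX cofactors, such as the Groucho-like corepressors Tle1 to Tle4 and the acetyltransferases Ep300 and Crebbp, 15 (MES), 16 (HB), 16 (HE), 16 (HP) and 14 (MAC) had a promoter site, where the shares of all protein-coding genes were 57.2, 58.9, 61.7, 50.1 and 50.2%. Tle2 had none in any list, Hipk2 had one in HB, HE and HP, and Runx1t1, the ETO corepressor gene, lacked one in MAC. Of 8 partner factors, the number was 5, 7, 8, 6 and 6 (62.5, 87.5, 100, 75 and 75%). In HE the list was complete, with Fli1 and Erg, ETS factors of endothelium and blood, and Tal1, the E-box factor of early blood, among them. Fli1 had 8 sites in HE, 1 in HP and 8 in MAC, and Erg 7, 1 and 5. In the same stages Tal1 (5, 4 and 5), Gata2 (4, 4 and 3) and Lyl1 (6, 5 and 6) changed less. The median over the 8 partners was 5.5, 3 and 5.5 sites, and HP had the shortest list.

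Of 12 genes known as RUNX1 targets in blood, 2 (MES), 4 (HB), 7 (HE), 5 (HP) and 7 (MAC) had a promoter site. Spi1, which encodes PU.1, had one in HE, HP and MAC, and Csf1r, the M-CSF receptor gene, in MAC alone. Itga2b had one in HE and HP, Gfi1, a repressor gene of the endothelial to blood transition, in HB and HE, and Nfe2 in HB, HE, HP and MAC. Cebpa and Zfpm1 had one in every list and Il3 had no site at all. As shares, the targets stood at 16.7, 33.3, 58.3, 41.7 and 58.3%, against the same 57.2, 58.9, 61.7, 50.1 and 50.2% of all genes. They were thus below the share of all genes in MES and HB and within about 1 gene of it in HE, HP and MAC.

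By the profile of sites per 10000 over the 5 lists, the genes most like Runx1 among 404 genes with at least 25 sites were Ano6, Arhgap10, 1700017B05Rik, Tut7 and Zmiz1. Their cosine similarities were 0.994, 0.990, 0.988, 0.981 and 0.980. Ano6 had 1, 3, 5, 7 and 10 sites from MES to MAC. For Runx2, compared with 9431 genes with at least 6 sites, they were Mef2c (0.998), Rab31 (0.997), Zswim2 (0.996), Tmsb4x (0.996) and Adora2a (0.996). For Runx3, compared with 1887 genes, they included Arrdc3 (0.993), Uvrag (0.993), Abhd2 (0.993) and Gatd3a (0.991). A profile has only 5 values, and the lists' lengths and widths are shared by all genes.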

How the data were processed

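DNase I-seq sites of 5 sorted stages were taken as deposited: 1 list per stage of chromosome, start and end on mm10, a unit of positions only, with no score. Per the study's methods the authors trimmed reads, aligned them with Bowtie, removed duplicates and called sites with DFilter. HOMER is also named in the submitters' processing notes. Versions were not given in the sources used here. All widths were multiples of 100 bp. Aligned-read totals were left unused. The reference was GRCm38.p6, the assembly of mm10, with RefSeq transcripts.

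Sites were assigned to genes by the nearest curated TSS to their middle (reach 100 kb, or inside the gene) or by a TSS of any transcript within 1 kb. Regions were 500 bp windows joined where they shared 25% of a window. Motifs were exact matches on both strands. The named genes were the 4 members and the lists given with them, and the 5 genes with the highest cosine similarity to each RUNX gene, of which 1 is not reported here. The members and lists were chosen with earlier results of these data known. Assignment and merging were tested on simulated intervals. Python 3.11.15, numpy 2.4.6, scipy 1.17.1 and pysam 0.24.0 were used. With 1 list per stage no test was run. The alternatives were other reaches, widths, list lengths, overlaps, transcripts and motif windows.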

Additional observations from a re-analysis of the deposited data

How the results depend on the processing

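With only the sites at least as wide as the median of their list, Runx1 had 1, 4, 3, 5 and 8 sites from MES to MAC, Runx2 had 2 over the 5 lists, Runx3 10 and Cbfb 7. The promoters Runx2 P2 and Runx3 P1 then had a site in 0 stages, Runx1 had 15 regions, 11 of them in a single stage, and the 4 genes had 29, with 23 in a single stage and 1 in all 5. With each list cut to its widest 17734 sites, where sites of equal width at the limit were taken in genome order, Runx1 had 3 sites in HE and 8 in MAC, Runx2 had 3 over the lists and Runx3 17. Runx2 P2 then had a site in 0 stages, and the 4 genes had 39 regions, 1 of them in all 5 stages. With no limit on distance, chosen after seeing the data, Runx1 had 6, 10, 14, 14 and 32 sites from MES to MAC. A reach of 50 kb left Runx3 14 sites, and gene body assignment gave Runx2 19. Counting promoter sites within 2 kb gave Runx1 P1 a site in 3 stages and Runx3 P2 in 3. Merging deposited intervals gave 1 Runx1 region in all 5 stages. In the central 200 bp, 10 Runx1 regions held a RUNX match (32.3%, against 19.7% of all regions), 2 a GATA match (6.45%, against 10.5%), 15 an ETS match (48.4%, against 41.3%) and 12 an E-box match (38.7%, against 28.0%). Except where the rule itself fixes them, the causes were not tested. Runx1 P2 and Cbfb had a site in all 5 stages under each promoter setting run. Runx1 P1 lacked one in HE and HP under each. Predicted transcripts changed none of the counts of Runx1 or of the other genes' totals. No paired analysis was possible because each stage had a single list. The lists carry no depth and totals of aligned reads were left unused, so the part of depth in sites missing from the short HP list was not tested.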

Other observations

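Upstream of Runx1 P1, a further 26 sites had Runx1 as their nearest protein-coding gene but lay beyond the 100 kb reach. From MES to MAC they numbered 3, 4, 6, 2 and 11, the farthest 382 kb upstream of P1 in MAC. Sites about 181 kb upstream were listed in MES (1000 bp), HB (1200 bp) and HE (600 bp), and not in HP or MAC. Sites about 322 kb upstream were listed in HE and HP, each 800 bp wide, and sites about 304 kb upstream in the same stages, 1000 and 500 bp wide. A site about 327 kb upstream was listed in HB and HE, each 800 bp wide. The 11 MAC sites of this stretch lay elsewhere, from 127 kb upstream on.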
